A study of Mus musculus with 12 samples.

Results

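Slco1c1, Dio2, Crym, Thra, Thrb and Hr carry, activate, hold and read thyroid hormone in the brain, and their transcripts were measured here in the striatum of mice after repeated morphine. The 6 genes were chosen by symbol, and each had 1 probe set with a single gene name, 6 of the 21780 such probe sets on the array and 6 of 19935 genes. RNA came from male Swiss-Albino mice aged 2 months, pooled from 4 animals for each Affymetrix Mouse Gene 1.0 ST array. The saline group (6 arrays) had vehicle injections in 6 induction trials, the morphine group (3 arrays) had vehicle and then morphine at 20 mg/kg, and the butyrate-morphine group (3 arrays) had sodium butyrate at 300 mg/kg and then morphine at 20 mg/kg. Butyrate inhibits histone deacetylases, and the series asks whether it enlarges the response to morphine. A challenge followed 7 days after induction, and RNA was taken 1 h later. For the saline group the source names give a saline challenge and the protocol text a morphine one, so a difference from saline holds either the acute and the repeated injections or the repeated ones alone.

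Thyroid hormone reaches the brain mainly as thyroxine, which carriers in the vessel wall and the choroid plexus bring in. Astrocytes and the tanycytes of the ventricle wall convert thyroxine to the active triiodothyronine with the enzyme encoded by Dio2. Neurons then read triiodothyronine with nuclear receptors that bind DNA together with retinoid X receptors and recruit coactivators or corepressors, the latter acting through histone deacetylases. In the striatum, thyroid hormone is best known for its part in the maturation of projection neurons.

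RefSeq promoter windows, of 250 bases before to 50 after the start site on build GRCm38.p6, were at hand for 3 of the 6 genes: Slco1c1, Dio2 and Thrb, the last with 2 windows. They were searched on both strands for the thyroid half-site AGGTCA, for 2 of these half-sites in the same direction 4 bases apart, for the glucocorticoid half-site AGAACA, alone or facing its partner 3 bases away, and for the E-box CACGTG that clock factors bind. The cAMP half-site TGACG was added after the Dio2 window had been read, since Dio2 is known to respond to cAMP. The stretches below are examples, 1 match from each window, picked after the matches were seen, with the matched letters in capitals, 5′ to 3′ on the gene's own strand.
Dio2, chr12:90739116-90739145, minus strand, cAMP half-site: cctctttctcaaTGACGtcaagatctttag
Thrb, first window, chr14:17660764-17660793, plus strand, thyroid half-site: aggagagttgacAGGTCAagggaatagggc
Thrb, second window, chr14:17981439-17981468, plus strand, E-box: tcatttcctaatCACGTGgaaagaggttaa
Slco1c1, chr6:141524361-141524390, plus strand, E-box: acaaagctttatCACGTGtggccttaaact
The Dio2 match starts 95 bases before the start site and overlaps a second one on the other strand. The first Thrb window also held a cAMP half-site, and the second held 2 glucocorticoid half-sites. Among all 32851 windows, 16.3% held the thyroid half-site, 19% the glucocorticoid half-site, 7.15% the E-box and 20.8% the cAMP half-site. The paired thyroid half-sites, found in 0.0152% of windows, and the paired glucocorticoid half-sites, found in 0.00913%, were in none of the 4 windows of these genes. A match is letters only and was not set against binding.

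The deposited values are differences from a saline baseline on a scale taken as log2, in which saline arrays 1 and 2, 3 and 4, and 5 and 6 mirror each other. The saline mean is therefore 0 in each row, and the 6 saline arrays hold 3 independent values. Centring removed the level of each gene, so the presence of striatal markers could be read only as a range, from the rounding step. Precision is limited by the number of arrays. The step to which values are rounded (read within 0.1 of a step) is that of stored values between 8 and 16 for Slco1c1, Dio2, Crym and Thra, and that of values between 4 and 8 for Thrb and Hr. The step of values between 8 and 16 was also that of the 8 measured striatal projection neuron markers. Array medians lay between -0.0153 and 0.0136. All 9 measured choroid plexus markers rose in the morphine arrays and 8 of 9 in the butyrate-morphine arrays. Whether pools came from separate cohorts is not stated in the labels, and p-values measure only how the pools varied within groups. The main fit counts the mirrored saline arrays as 6, with 9 residual degrees of freedom. Variation between the saline pairs is absent from the values, so p-values may be too small and intervals too narrow. In whole tissue, fewer cells of a type and less RNA per cell cannot be told apart.

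None of the 6 genes passed in any of the 3 comparisons, by limma with Benjamini-Hochberg adjustment over all 21780 probe sets at 0.05. At an unadjusted p under 0.05, 0 of 6 passed for morphine against saline, beside 15.4% of all probe sets, 0 for butyrate-morphine against saline (17.2%) and 1, Hr, for butyrate-morphine against morphine (8.71%). Over all probe sets, 2.45% were called for morphine against saline, 2.35% for butyrate-morphine against saline and 0% for butyrate-morphine against morphine. A count of 0 among 6 is close to those shares. Arrays of the 2 groups did not overlap for 0 of the 6 genes in either comparison with saline, beside 8.09% of all probe sets for morphine and 11.8% for butyrate-morphine. The median log2 difference of the 6 was -0.04 for morphine and 0.04 for butyrate-morphine against saline, beside -0.0033 and 0.0071 over all probe sets. What set the genes apart from each other was the spread among the 3 morphine arrays, which was widest for Crym and Dio2.

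**Figure D1:**
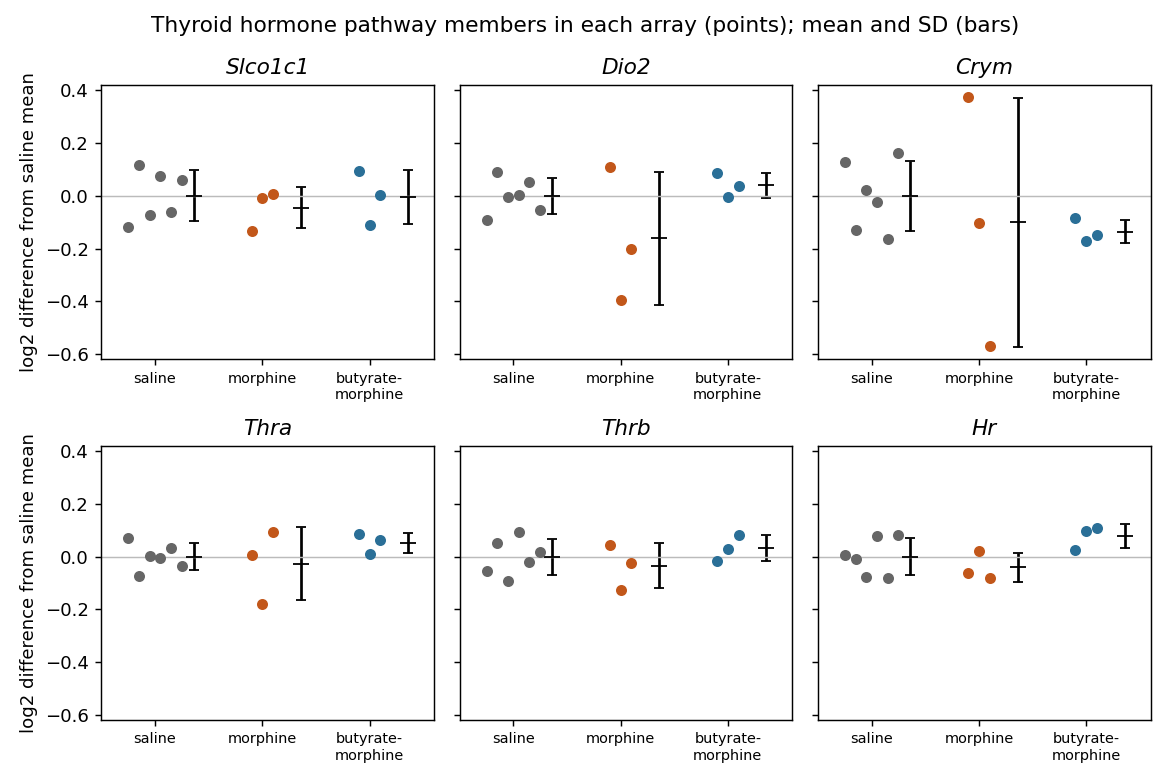
Log2 difference from the saline mean (vertical axis) of each gene in every array (points), for 6 saline, 3 morphine and 3 butyrate-morphine arrays, with the group mean and SD as a bar to the right of the points. Crym spans -0.57 to 0.37 and Dio2 -0.39 to 0.11 in the morphine arrays, while the butyrate-morphine arrays of both genes lie close together.

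Slco1c1 encodes the thyroxine carrier of brain capillaries, also made by the choroid plexus and astrocytes. It was at -0.13, -0.0091 and 0.0088 in morphine arrays 1 to 3 and at 0.09, -0.11 and 0.0020 in the butyrate-morphine arrays, with saline arrays from -0.12 to 0.12. All the butyrate-morphine arrays and 2 of the morphine arrays fell inside the saline range. The mean was -0.04 ± 0.08 (SD, n = 3) after morphine, or 0.97 of saline with a 95% interval of 0.885 to 1.06 (adjusted p = 0.818). After butyrate-morphine the mean was -0.0047 ± 0.10, or 0.997 of saline (interval 0.91 to 1.09, adjusted p = 0.983). In the same arrays, 4 of 9 endothelial markers fell and 2 rose in each comparison with saline. The choroid plexus marker mean was 1.20 to 1.42 in morphine and 0.88 to 1.16 in butyrate-morphine arrays, and the part of these cells in the Slco1c1 values was not tested.

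Dio2 encodes the deiodinase that makes triiodothyronine from thyroxine. It was at 0.11, -0.39 and -0.20 in morphine arrays 1 to 3 and at 0.09, -0.0058 and 0.04 in the butyrate-morphine arrays, with saline arrays from -0.09 to 0.09. Morphine arrays 2 and 3 were below every saline array and array 1 was above them all, so the groups overlapped. The morphine mean was -0.16 ± 0.25 (SD, n = 3), or 0.894 of saline with a 95% interval of 0.791 to 1.01 (adjusted p = 0.375). Without morphine array 1 the difference was -0.30 and passed (adjusted p = 0.0144), in a fit that called 1092 probe sets in place of 534. Without morphine array 2 it was -0.05 (adjusted p = 0.808), and over all alternatives the adjusted p ran from 0.0144 to 0.941. Butyrate-morphine stood at 1.03 of saline (0.04 ± 0.05, adjusted p = 0.862) and at 1.15 of morphine (interval 0.998 to 1.33, adjusted p = 0.576).

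The spread of Dio2 among the morphine arrays was among the wider ones on the array. Its SD of 0.25 there was exceeded by 2.29% of all probe sets, against 44.7% in saline and 59.9% in butyrate-morphine. Astrocytes are the main source of Dio2 outside the ventricle wall, and the mean of 10 astrocyte markers was 0.06 to 0.11 in the morphine arrays. The mean of 9 tanycyte and ependymal markers was -0.05 to 0.12 there, with 0 of 9 passing the test. Dio2 differed by 0.50 between its highest and lowest morphine array.

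Crym encodes mu-crystallin, a cytosolic protein that binds triiodothyronine and is made by striatal and cortical neurons. Its values were 0.37, -0.10 and -0.57 in morphine arrays 1 to 3, with saline arrays from -0.16 to 0.16. Array 1 was above every saline array, array 3 below every one and array 2 among them. The mean was -0.10 ± 0.47 (SD, n = 3), or 0.933 of saline with a 95% interval of 0.749 to 1.16 (adjusted p = 0.83). This SD was exceeded by 0.119% of all probe sets in the morphine group, whose median SD was 0.0772. In saline, 6.59% of probe sets had a larger SD than Crym.

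The butyrate-morphine arrays gave Crym values of -0.09, -0.17 and -0.15, with an SD of 0.04 that 62.5% of probe sets exceeded. They overlapped the low end of the saline arrays, and the mean was 0.91 of saline (-0.14 ± 0.04, SD, n = 3, interval 0.731 to 1.13, adjusted p = 0.704). Against morphine the ratio was 0.975, with an interval of 0.757 to 1.26 (adjusted p = 0.977). The direction of the Crym difference rested on single arrays. It was 0.14 for morphine against saline without morphine array 3 and -0.34 without morphine array 1, and it did not pass in either fit (adjusted p = 0.688 and 0.116, over all alternatives 0.116 to 1).

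Markers of tissue beside the striatum also differed between the morphine arrays, with 0 of 5 cortical markers and 3 of 8 thalamic and septal markers passing for morphine against saline. The mean of 5 cortical excitatory neuron markers was 0.12, -0.71 and -0.22 in morphine arrays 1 to 3, and that of 8 thalamic and septal markers was 0.14, 0.51 and 0.62. Of the 5 cortical markers, 4 were lower after morphine and 1, Rasgrf2, was higher. Dio2 was highest in array 1 and lowest in array 2, the order of the cortical mean. Crym was highest in array 1 and lowest in array 3, the reverse of the order of the thalamic and septal markers. In the butyrate-morphine arrays the cortical mean was -0.12, 0.07 and -0.06 and the thalamic and septal mean 0.43, -0.06 and 0.28. Crym and Dio2 showed little spread there. Dio2 kept its order from the morphine arrays, and Crym did not. Beside the markers of the butyrate-morphine arrays, Dio2 ran in the reverse of the cortical order. Crym ran in the same order as the thalamic and septal mean. The part of neighbouring tissue in the values of Crym and Dio2 was not tested.

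**Figure D2:**
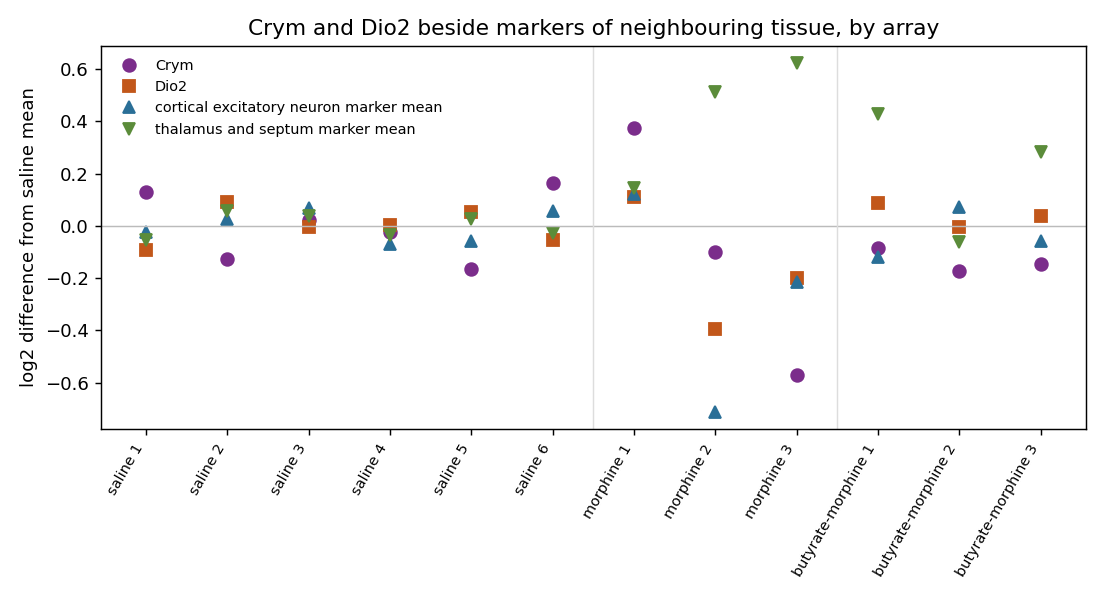
Log2 difference from the saline mean (vertical axis) of Crym, Dio2 and the means of the cortical excitatory neuron and the thalamic and septal markers in each of the 12 arrays (horizontal axis). Saline points lie between -0.16 and 0.16. Crym is at 0.37 in morphine array 1 and -0.57 in morphine array 3. The cortical mean reaches -0.71 in morphine array 2. The thalamic and septal mean reaches 0.62 in morphine array 3 and 0.43 in butyrate-morphine array 1.

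Thra encodes the alpha receptor, the main thyroid hormone receptor of brain, and its non-binding splice form. It was at 0.0070, -0.18 and 0.09 in morphine arrays 1 to 3 and at 0.08, 0.01 and 0.06 in the butyrate-morphine arrays, with saline arrays from -0.07 to 0.07. Morphine array 2 was below and array 3 above every saline array. The mean was 0.982 of saline after morphine (-0.03 ± 0.14, SD, n = 3, 95% interval 0.908 to 1.06, adjusted p = 0.885) and 1.04 after butyrate-morphine (0.05 ± 0.04, interval 0.959 to 1.12, adjusted p = 0.674). RefSeq places Thra in overlap with Nr1d1, a clock repressor gene, and the splice forms were not told apart here.

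Thrb encodes the beta receptor. It was at 0.04, -0.13 and -0.02 in the morphine arrays and at -0.02, 0.03 and 0.08 in the butyrate-morphine arrays, with saline arrays from -0.09 to 0.09. Morphine array 2 alone was outside the saline range. Morphine was at 0.976 of saline (interval 0.908 to 1.05, adjusted p = 0.816) and butyrate-morphine at 1.02 (interval 0.951 to 1.10, adjusted p = 0.802).

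Hr encodes hairless, a corepressor that binds thyroid hormone receptors and is itself a known target of the hormone in brain. It was at -0.06, 0.02 and -0.08 in the morphine arrays and at 0.03, 0.10 and 0.11 in the butyrate-morphine arrays, with saline arrays from -0.08 to 0.08. Every butyrate-morphine array was above every morphine array, by 0.0057 between the nearest 2, and both groups overlapped saline. Such separation was seen for 10.8% of all probe sets in this comparison. The ratio was 1.09 (0.12, 95% interval 1.00 to 1.17, unadjusted p = 0.0407, adjusted p = 0.546), so it did not pass over all probe sets. Against saline, Hr was at 0.972 after morphine (adjusted p = 0.754) and 1.06 after butyrate-morphine (interval 0.986 to 1.13, adjusted p = 0.414).

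**Figure D3:**
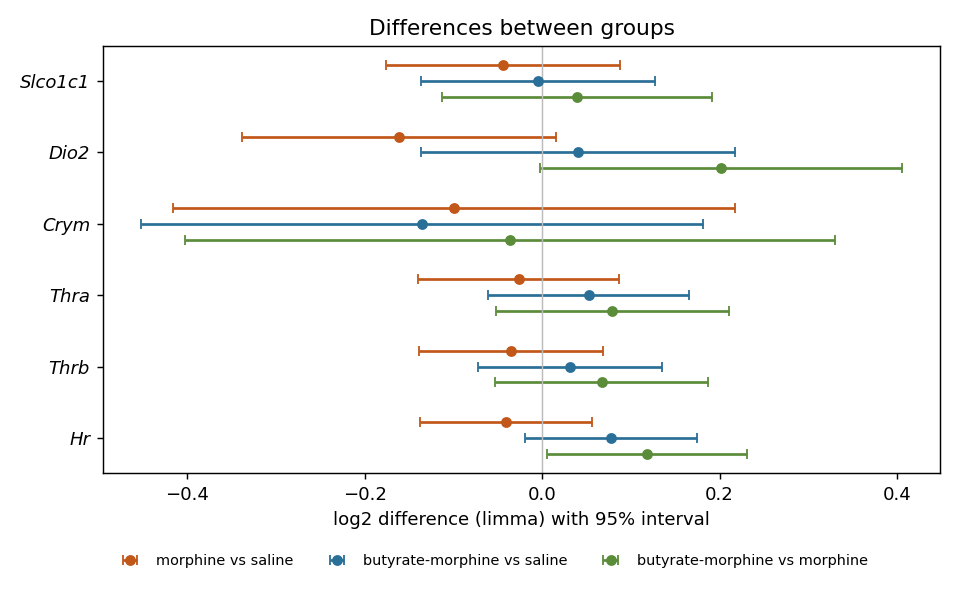
Log2 difference (horizontal axis) with its 95% interval from limma for each gene in the 3 comparisons, 6 saline, 3 morphine and 3 butyrate-morphine arrays. The intervals of all genes include 0 except that of Hr for butyrate-morphine against morphine, which starts at 0.0058 and did not pass after adjustment.

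Butyrate-morphine against morphine was above 0 for 5 of the 6 genes and below for Crym, with a median of 0.07 beside 0.0111 over all probe sets. The share below 0 was thus 16.7% of the 6 genes, beside 43% of all probe sets. The largest difference was that of Dio2 at 0.20, which without morphine array 1 was 0.34 (adjusted p = 0.0647, over all alternatives 0.0647 to 1). Intervals for the receptors were 0.965 to 1.16 for Thra and 0.964 to 1.14 for Thrb, and that for Slco1c1 was 0.925 to 1.14. The comparisons with saline share their 6 control arrays, and both comparisons of morphine share its 3 arrays, so the values of a gene in different comparisons are not independent.

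The 6 genes did not follow one another closely. Over the 12 arrays, Pearson's r between pairs lay between -0.30, for Slco1c1 and Crym, and 0.65, for Thrb and Dio2. The arrays share their saline baseline, and mirrored saline arrays are not independent of each other. Among all named genes, those most like Dio2 were the inward rectifier potassium channel gene Kcnj2 (0.95), Necab3 (0.95) and the kinase subunit gene Camk2b (0.94). Crym was most like Dhps, which encodes the first enzyme of hypusine synthesis (0.97), the mitochondrial ribosome gene Mrpl20 (0.94) and Tmem179 (0.94). Hr was most like Klk12 (0.97), Pcif1 (0.92) and the elongation factor kinase gene Eef2k (0.92), and Slco1c1 most like Zeb1 (0.94), Mtch2 (0.91) and Gdap1 (0.88). Thra was most like Usp24 (0.93), Myo16 (0.92) and the synaptotagmin gene Syt7 (0.91), and Thrb most like Fhl2 (0.93), Irak1bp1 (0.93) and Egln3 (0.92). Each of these values is among the highest of a search over 21780 probe sets. None of these 18 genes passed the test against saline in either morphine group. They were picked for likeness to genes that did not pass, so this is no separate result.

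The rest of the pathway was read from 5 lists with 64 genes, of which 60 were measured by 61 probe sets. The other 4 were not analysed here. For morphine against saline, 1 gene rose (Ttr) and 1 fell (Rxrg), which is 3.33% of 60 beside 1.3% of all probe sets higher and 1.15% lower. For butyrate-morphine against saline, 5 rose (Ttr, Slc7a8, Slc3a2, Klf9 and Trhr2) and 0 fell, which is 8.33% beside 1.76% of all probe sets higher and 0.592% lower. For butyrate-morphine against morphine 0 passed, with 10 at an unadjusted p under 0.05, which is 16.7% beside 8.71% of all probe sets. Ttr kept its call in every fit that left out an array, while the other calls were lost in several. Quantile normalization ended the Ttr calls too, with differences of 1.87 in both comparisons with saline (adjusted p = 0.166 for morphine and 0.109 for butyrate-morphine). It gives every array the same set of values, so the size of a difference follows from ranks alone. These lost calls therefore cannot show whether the Ttr rise depends on normalization. The morphine count was 1 without saline array 2, 4 or 6 or morphine array 2 or 3 and 6 without morphine array 1. The butyrate-morphine count was 1 without saline array 1, 2 or 4 or butyrate-morphine array 2 or 3, 2 without saline array 6, and 3 without saline array 5 or butyrate-morphine array 1. With a separate mean for each mirror pair of saline arrays, Ttr alone passed in both comparisons. That fit kept all 6 saline arrays and had fewer residual degrees of freedom.

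**Figure D4:**
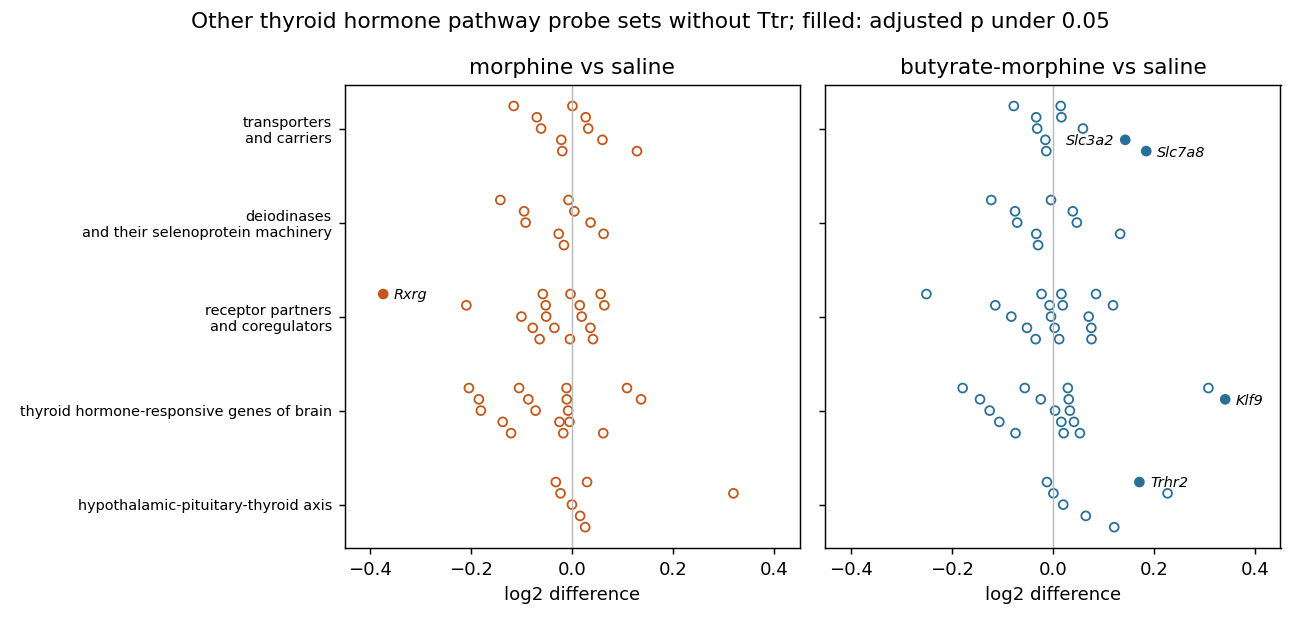
Log2 difference from saline (horizontal axis) of 60 probe sets of the pathway lists, Ttr left out for scale, for morphine (left) and butyrate-morphine (right), with 3 arrays each against 6. Filled and named points passed at adjusted p under 0.05, with Rxrg at -0.37 and Klf9 at 0.34 the named points farthest from 0.

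Among 11 carriers and transporters, Ttr stood alone in size. It encodes transthyretin, the thyroxine carrier that the choroid plexus secretes, and was at 3.80, 3.79 and 3.65 in the morphine arrays and 3.63, 3.17 and 3.46 in the butyrate-morphine arrays. Saline arrays lay between -0.72 and 0.72, far below both. The choroid plexus marker means of these arrays are given above, and the part of that tissue in the Ttr values was not tested. Slc3a2 and Slc7a8 encode the heavy and a light chain of amino acid exchangers that also carry thyroid hormones.

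Slc3a2 was at 0.11, 0.19 and 0.13 in the butyrate-morphine arrays, above all saline arrays (-0.04 to 0.04), and rose by 0.14 (adjusted p = 0.0418). In the morphine arrays it was at 0.13, 0.16 and 0.09, again above all saline arrays, and did not pass (0.13, adjusted p = 0.0625). Slc7a8 was at 0.19, 0.22 and 0.14 in the butyrate-morphine arrays against 0.0061, -0.07 and -0.0031 in the morphine arrays and -0.09 to 0.09 in saline. It rose by 0.18 over saline (adjusted p = 0.0354), and its difference of 0.21 from morphine did not pass (adjusted p = 0.276). Slc3a2 lost its call without saline array 1, 2, 3, 4 or 6 or any butyrate-morphine array, and Slc7a8 without saline array 1, 2, 4 or 5 or any butyrate-morphine array, with adjusted p up to 0.175 and 0.147.

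Of 9 deiodinase and selenoprotein genes, 0 passed in any comparison. Dio3, whose enzyme inactivates thyroid hormone, was at 0.938 of saline after morphine and 0.949 after butyrate-morphine (adjusted p = 0.508 and 0.57). The lowest p-values in the list were those of Sephs2, a selenophosphate synthetase gene, at 0.13 after butyrate-morphine (adjusted p = 0.128), and Sepsecs, which completes selenocysteine on its transfer RNA, at 0.19 for butyrate-morphine against morphine (adjusted p = 0.542).

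Of 16 receptor partners and coregulators, Rxrg fell after morphine and the others did not pass. Rxrg encodes a retinoid X receptor that is enriched in striatal projection neurons and pairs with thyroid hormone receptors. It was at -0.32, -0.43 and -0.37 in the morphine arrays, below every saline array (-0.20 to 0.20), and fell by 0.37, to 0.772 of saline (adjusted p = 0.0318). In the butyrate-morphine arrays it was at -0.31, -0.24 and -0.20, also below saline, and did not pass (-0.25, adjusted p = 0.13). The call was lost without saline array 2, 4 or 6 or morphine array 2 or 3 (adjusted p up to 0.104). The mean of 8 striatal projection neuron markers was -0.16 to -0.12 in the same morphine arrays, and its part in the Rxrg value was not tested. Hdac3, the deacetylase of the receptor corepressor complex, was at 0.06 after morphine and 0.12 after butyrate-morphine (adjusted p = 0.55 and 0.134).

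Of 17 genes known to respond to thyroid hormone in brain, Klf9 rose after butyrate-morphine and 0 passed after morphine. The list's median was -0.03 after morphine, beside -0.0033 over all probe sets. Of its genes, 82.4% were below saline, beside 52% of all probe sets. The list's mean was 0.0031, -0.06 and -0.09 in morphine arrays 1 to 3, so array 1 did not share this lean. Klf9 encodes a transcription factor that thyroid hormone and glucocorticoids both induce. It was at 0.26, 0.47 and 0.29 in the butyrate-morphine arrays, above every saline array (-0.11 to 0.11), and rose by 0.34, to 1.27-fold (adjusted p = 0.0325). In the morphine arrays it was at 0.31, 0.14 and -0.04 (adjusted p = 0.415), and the difference between the morphine groups did not pass (0.20, adjusted p = 0.526). The call was lost without saline array 1, 2, 4 or 6 or any butyrate-morphine array (adjusted p up to 0.151). The classic striatal target Nrgn, which encodes neurogranin, was at -0.20 after morphine (adjusted p = 0.141), 0.03 after butyrate-morphine (adjusted p = 0.879) and 0.23 for butyrate-morphine against morphine (adjusted p = 0.427). Rasd2, which encodes Rhes, was at -0.0052, 0.05 and 0.06 in the same order (adjusted p = 0.976, 0.539 and 0.77).

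Of 7 genes of the hypothalamic-pituitary-thyroid axis, Trhr2, a receptor for thyrotropin-releasing hormone, rose by 0.17 after butyrate-morphine (adjusted p = 0.0482). It was at 0.17, 0.23 and 0.12 in those arrays and at 0.09, 0.03 and -0.04 in the morphine arrays, with saline arrays from -0.07 to 0.07. The call was lost without any 1 of the saline or butyrate-morphine arrays, with adjusted p up to 0.203.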

How the data were processed

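Values are those the authors deposited, 28815 rows by 12 arrays, on a scale taken as log2. Background correction, normalization, summarisation and the log base were not given in the labels or the file. Centring and direction were read from the values. The platform annotation named the probe sets: 21780 had 1 symbol and were tested, 1605 had several and 5430 none. The comparisons used limma 3.58.1 under R 4.3.3 (lmFit and eBayes, 12 arrays, 3 group means), Benjamini-Hochberg adjustment over all tested probe sets and a threshold of 0.05, with 9 residual and 3.87 prior degrees of freedom. The procedure was run on simulated arrays with independent normal noise, as a check of the code only, and no result here rests on it. The members and lists were chosen with earlier results of these data known. All 6 members are given; of each pathway list, up to 6 genes past the threshold, or else the 2 with the lowest p; for likeness, the 3 genes with the highest r, passing over predicted and unnamed genes. Dio3, Hdac3, Nrgn and Rasd2 were named outside this rule, after their values were seen, as was the rank of spread among probe sets. Cell type markers covered choroid plexus, endothelium, astrocytes, tanycytes and ependyma, projection neurons, cortex, thalamus and septum, and oligodendrocytes (0 of 7 called in each comparison).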

Additional observations from a re-analysis of the deposited data

How the results depend on the processing

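The count of the 6 genes passing stayed at 0 under all alternatives and all 3 comparisons except for Dio2 without morphine array 1; with an array left out it was 0 to 1 for morphine against saline. The count of pathway genes for morphine against saline was 2, and 0 with quantile normalization. The replicate block, array weights, eBayes trend and robust, and a fit of only the compared groups each gave 1. So did saline arrays 1 to 3, saline arrays 4 to 6, a mean for each mirror pair and a threshold of 0.01. The range was 1 to 6 with an array left out. For butyrate-morphine against saline the count was 5, with 0 under quantile normalization and 3 with array medians set to 0. Trend and robust, the replicate block, saline arrays 1 to 3 and saline arrays 4 to 6 each gave 1. A mean for each mirror pair and the threshold of 0.01 also gave 1. The range was again 1 to 6 with an array left out. The cause was not tested, apart from the fewer arrays or degrees of freedom that some alternatives have by construction. Quantile normalization also gives all arrays the same spread by construction.

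Some differences that did not pass changed sign. With array weights Thra was at 0.0202 for morphine, Slco1c1 at 0.0027 for butyrate-morphine and Crym at 0.0872 for butyrate-morphine against morphine. Slco1c1 was at 0.0200 for butyrate-morphine with the replicate block and with saline arrays 1 to 3, and Slc7a8 at 0.0086 for morphine with saline arrays 4 to 6. With an array left out, the ranges for morphine against saline were -0.0860 to 0.0496 for Thra, -0.0746 to 0.0104 for Thrb, -0.34 to 0.14 for Crym, -0.0394 to 0.0015 for Slc7a8 and -0.0024 to 0.0622 for Trhr2. For butyrate-morphine against saline they were -0.0537 to 0.0477 for Slco1c1 and -0.0067 to 0.11 for Sepsecs. For butyrate-morphine against morphine they were -0.0094 to 0.0921 for Slco1c1, -0.27 to 0.20 for Crym and -0.0073 to 0.0326 for Slc3a2.

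Over all probe sets, the alternatives at the 0.05 threshold called 49 to 1092 for morphine, 38 to 1134 for butyrate-morphine (main 534 and 512) and 0 to 27 for butyrate-morphine against morphine (main 0). The replicate block gave the 49 and the 38. Same-numbered arrays of different groups deviated with r between -0.27 and 0.20 over 9 pairs. Mirrored saline arrays give opposite r by construction, so this check cannot show whether same-numbered arrays share a batch.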

Other observations

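2 genes of the axis list spread widely among the morphine arrays and were named after their values were seen. Trh, the precursor gene of thyrotropin-releasing hormone, was at -0.15, 0.50 and 0.60 in morphine arrays 1 to 3 and at 0.32, 0.12 and 0.23 in the butyrate-morphine arrays. Trhde, which encodes the ectoenzyme that degrades this peptide, was at 0.30, -0.51 and 0.21 in the morphine arrays and at 0.0067, 0.29 and 0.06 in the butyrate-morphine arrays. Neither passed in any comparison. Dbp, a clock output gene also counted among hormone-responsive genes, was at 0.28, 0.29 and 0.35 in the butyrate-morphine arrays and at 0.06, -0.15 and 0.06 in the morphine arrays, and did not pass against saline (adjusted p = 0.057).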
